A study of Mus musculus with 25 samples.

Results

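The cell cycle and mitosis genes described here were 40 genes chosen by symbol for their known roles, out of 48795 genes in the deposited tables, and all 40 passed the filter on low counts and were tested. They were divided by textbook role into 3 cyclins of the entry into S phase, 15 genes of DNA replication, 4 regulators of the G2 phase and of proliferation, and 18 genes of mitosis. The rule used symbols and no measured value, although the list was drawn up with earlier results of these data known. The question was where along the path from liver to tumor these genes were expressed, and whether replication genes and mitosis genes moved alike.

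RNA-seq libraries, 1 per sample, were made from the livers and tumors of male mice of the inbred strain C57BL/6J, 25 samples in all. Mice received the carcinogen diethylnitrosamine (DEN), which hepatocytes activate, by 1 intraperitoneal injection of 25 mg/kg at 2 weeks of age, or no DEN, and received either WD, a western diet, or CD, a control diet, from weaning. The groups were liver of mice without DEN on CD (nonDEN L-CD, n = 3) or on WD (nonDEN L-WD, n = 4), liver of DEN mice on CD (DEN L-CD, n = 4), and, from DEN mice on WD, tissue beside tumors (DEN PT-WD, n = 8) and tumors (DEN T-WD, n = 6). Tissue was taken at 36 weeks of age, and the study's supplement also gives 39 weeks for DEN mice. By the study's account, the small tumors of DEN mice on CD could not be cut away, so DEN L-CD is whole liver that may hold small tumors. The labels give no mouse numbers, so whether a tumor and a peritumoral sample came from 1 mouse is not known here, and p-values measure the spread between these samples.

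An adult hepatocyte rests outside the cell cycle and can return to it. Cyclins D and E with their kinases inactivate the retinoblastoma proteins and free E2F factors, which switch on replication genes such as those of the MCM helicase. Later in the cycle, FOXM1 and the MuvB complex switch on genes of the G2 phase and mitosis through a promoter element called CHR, often beside CCAAT boxes, and the mitotic kinases, the spindle and the anaphase-promoting complex then divide the chromosomes.

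Promoter sequences from RefSeq (GRCm38.p6, 250 bases before to 50 bases after the start of the gene) were given for 30 of the 40 genes. *Ccnb2* (chromosome 9, minus strand, chr9:70421505-70421804) and *Plk1* (chromosome 7, plus strand, chr7:122159185-122159484) are shown as mitosis genes with a CHR whose tumor change was large, *Ccnb1* (chromosome 13, minus strand, chr13:100786437-100786736) as the mitosis gene with the largest tumor change, whose window holds no CHR, and *Mcm6* (chromosome 1, minus strand, chr1:128359656-128359955) and *Cdc6* (chromosome 11, plus strand, chr11:98907901-98908200) as the 2 replication genes with a window that were called against nonDEN L-WD in tumors. Each is written 5′ to 3′ along the gene's strand, and capitals mark CHR, CCAAT and E2F matches on either strand.
Ccnb2: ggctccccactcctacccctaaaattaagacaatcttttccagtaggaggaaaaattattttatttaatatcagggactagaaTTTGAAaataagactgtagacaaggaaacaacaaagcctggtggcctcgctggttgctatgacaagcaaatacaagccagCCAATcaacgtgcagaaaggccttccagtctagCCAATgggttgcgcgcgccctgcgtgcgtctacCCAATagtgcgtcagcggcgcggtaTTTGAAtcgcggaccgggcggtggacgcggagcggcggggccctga
Plk1: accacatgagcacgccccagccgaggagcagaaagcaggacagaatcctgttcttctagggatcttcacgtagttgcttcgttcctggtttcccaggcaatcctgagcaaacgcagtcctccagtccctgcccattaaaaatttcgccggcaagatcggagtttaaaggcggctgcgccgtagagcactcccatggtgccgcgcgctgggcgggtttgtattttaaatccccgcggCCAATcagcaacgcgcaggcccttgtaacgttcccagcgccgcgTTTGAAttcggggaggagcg
Ccnb1: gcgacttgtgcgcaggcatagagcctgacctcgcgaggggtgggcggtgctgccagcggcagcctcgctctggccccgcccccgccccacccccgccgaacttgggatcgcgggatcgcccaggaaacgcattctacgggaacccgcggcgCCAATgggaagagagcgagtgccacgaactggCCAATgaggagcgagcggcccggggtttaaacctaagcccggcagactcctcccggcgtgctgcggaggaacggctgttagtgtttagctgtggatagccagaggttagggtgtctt
Mcm6: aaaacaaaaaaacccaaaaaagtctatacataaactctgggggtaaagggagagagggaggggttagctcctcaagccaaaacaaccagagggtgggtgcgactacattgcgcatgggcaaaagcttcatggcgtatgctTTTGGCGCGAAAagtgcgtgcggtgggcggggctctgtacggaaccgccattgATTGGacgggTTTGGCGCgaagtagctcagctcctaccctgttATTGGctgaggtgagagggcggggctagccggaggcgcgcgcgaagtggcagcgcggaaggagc
Cdc6: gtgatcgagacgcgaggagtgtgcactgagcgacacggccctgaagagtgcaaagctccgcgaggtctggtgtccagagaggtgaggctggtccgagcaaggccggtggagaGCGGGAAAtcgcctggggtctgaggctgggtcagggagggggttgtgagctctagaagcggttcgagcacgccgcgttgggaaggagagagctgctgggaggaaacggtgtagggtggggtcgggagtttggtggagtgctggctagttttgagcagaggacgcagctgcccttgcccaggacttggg

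The letters searched were TTTGAA or TTCGAA for CHR, CCAAT for the CCAAT box, and TTTGGCGC, TTTCGCGC or TTTCCCGC for E2F, on both strands, with overlapping matches counted. In *Ccnb2*, 3 CCAAT boxes began 87, 54 and 21 bases before the start, each 33 bases from the next, and a CHR began at base 5 after the start. In *Plk1*, a CCAAT box began 14 bases before the start and a CHR at base 31 after it. *Ccnb1* carried CCAAT boxes 99 and 67 bases before the start and no CHR. *Mcm6* carried 3 E2F matches, 2 of which overlapped, and *Cdc6* carried 1. Over the windows given, CHR was found in 11 of 15 (73.3%, exact 95% interval 44.9 to 92.2) of mitosis genes, not in *Ccnb1*, *Mad2l1*, *Birc5* or *Nusap1*, and in 3 of 12 (25.0%, exact 95% interval 5.49 to 57.2) of replication genes, beside 19.4% of 27025 genes with a window. E2F letters were found in 6 of 12 (50%, exact 95% interval 21.1 to 78.9) of replication genes, namely *Cdc6*, *Cdt1*, *Mcm3*, *Mcm5*, *Mcm6* and *Mcm7*, and in 1 of 15 (6.67%, exact 95% interval 0.169 to 31.9) of mitosis genes, namely *Cdk1*, beside 1.91% of all genes. CCAAT boxes did not separate the classes, with 9 of 12 (75.0%, exact 95% interval 42.8 to 94.5) and 12 of 15 (80.0%, exact 95% interval 51.9 to 95.7), beside 37.9%. The intervals cover the counting of genes only, and a match of letters is no evidence of binding.

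**Figure D1:**
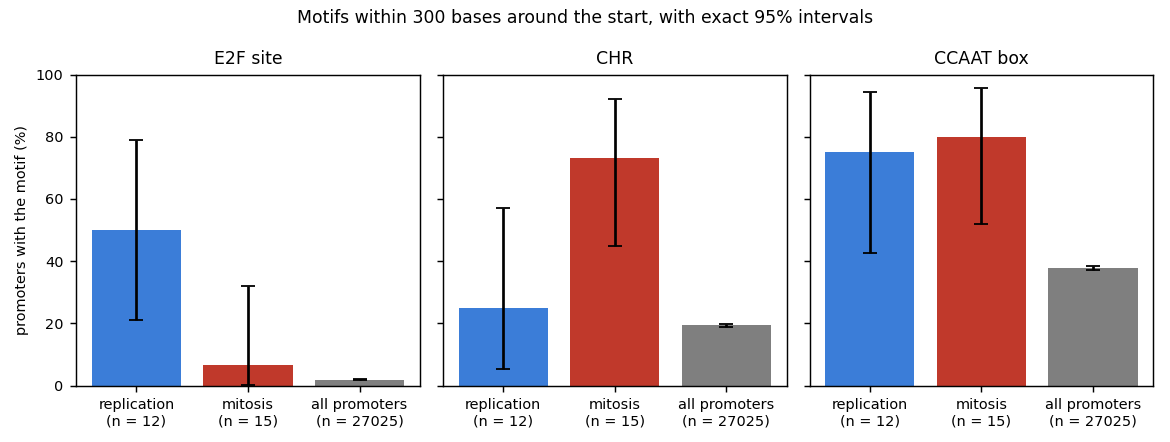
Share of promoters (percent, vertical axis) that hold an E2F site, a CHR or a CCAAT box among replication genes, mitosis genes and all genes with a window, with exact 95% intervals. E2F letters were in 50% of replication promoters and 6.67% of mitosis promoters, and CHR in 25.0% and 73.3%.

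Libraries held 21530083 to 38074411 expected counts, the estimate of reads per gene that the authors' program RSEM gives. Values below are normalized counts, which are expected counts scaled to a common library size, and TPM, RSEM's length-corrected share of transcripts, is used where genes are compared with each other. A gene is said to have risen or fallen where edgeR's quasi-likelihood test gave a Benjamini-Hochberg adjusted p of at most 0.05 over the 15625 genes tested, and to be called where its log2 fold change was also at least 1. Log2 fold changes are given ± their standard error. The hepatocyte markers were present in every library, with a summed level of 31700 TPM in DEN T-WD replicate 5 and 111000 to 130000 TPM in the other 5 tumors. Libraries of the other groups ran from 45300 TPM, in DEN PT-WD, to 75300 TPM, in DEN L-CD. DEN T-WD replicate 5 also had the highest summed leukocyte markers, 161 TPM.

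The mean over mitosis genes changed more than the mean over replication genes in each of the 6 pairwise comparisons. The mean log2 CPM (counts scaled to library size) over the 18 mitosis genes was -0.65 ± 0.34 (SD, n = 3) in nonDEN L-CD, -0.24 ± 0.47 (n = 4) in nonDEN L-WD, -0.02 ± 0.14 (n = 4) in DEN L-CD, 0.57 ± 0.60 (n = 8) in DEN PT-WD and 1.48 ± 0.41 (n = 6) in DEN T-WD. Over the 15 replication genes it was 1.60 ± 0.10, 1.85 ± 0.16, 1.88 ± 0.12, 2.11 ± 0.22 and 2.43 ± 0.22 in the same order. From nonDEN L-WD to DEN T-WD the mitosis mean was higher by 1.72 and the replication mean by 0.58, a difference (replication minus mitosis) of -1.14 beside a pooled SD between replicates of 0.33. From DEN PT-WD to DEN T-WD the changes were 0.91 and 0.32, a difference of -0.59 beside an SD of 0.39. From nonDEN L-CD to nonDEN L-WD the changes were 0.41 and 0.25, and their difference of -0.16 was smaller than the SD of 0.37. With the median over genes in place of the mean, that difference was 0.30, and from nonDEN L-CD to DEN L-CD it was 0.02 instead of -0.36. With 1 replicate left out, the difference ran from -0.31 to 0.07 for diet alone, turning in sign without nonDEN L-CD replicate 3, and from -0.51 to -0.13 for DEN alone. These means have no test, since the genes were chosen as a list. With log2(TPM + 1), which compresses genes of low level, the difference from nonDEN L-WD to DEN T-WD was -0.38, and from nonDEN L-WD to DEN PT-WD it was -0.07 instead of -0.55. With log2(TPM + 0.1) these were -0.92 and -0.37.

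The classes also differed in level. Per length, the median mitosis gene stood at 0.32 TPM in nonDEN L-CD and 2.07 TPM in DEN T-WD, and 16 of the 18 were below 1 TPM in nonDEN L-CD against 2 in DEN T-WD. The median replication gene stood at 1.5 TPM in nonDEN L-CD and 4.55 TPM in DEN T-WD. Differences in TPM between groups can exceed those in normalized counts. For *Pcna*, mean TPM was 25.4 in nonDEN L-CD and 37.5 in DEN T-WD, while normalized counts ran from 801.6 to 831.8 and from 712.0 to 1054.1. Single libraries departed from their group. DEN PT-WD replicate 8 had a mitosis mean of 1.60 and a replication mean of 2.55, the third and the second highest of the 25 libraries and within the tumors' range. DEN PT-WD replicate 6 had a mitosis mean of -0.38, below every DEN L-CD library. DEN T-WD replicate 5 was highest in both, at 2.02 and 2.87. In a piece of tissue, fewer dividing cells and less RNA per dividing cell cannot be told apart.

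**Figure D2:**
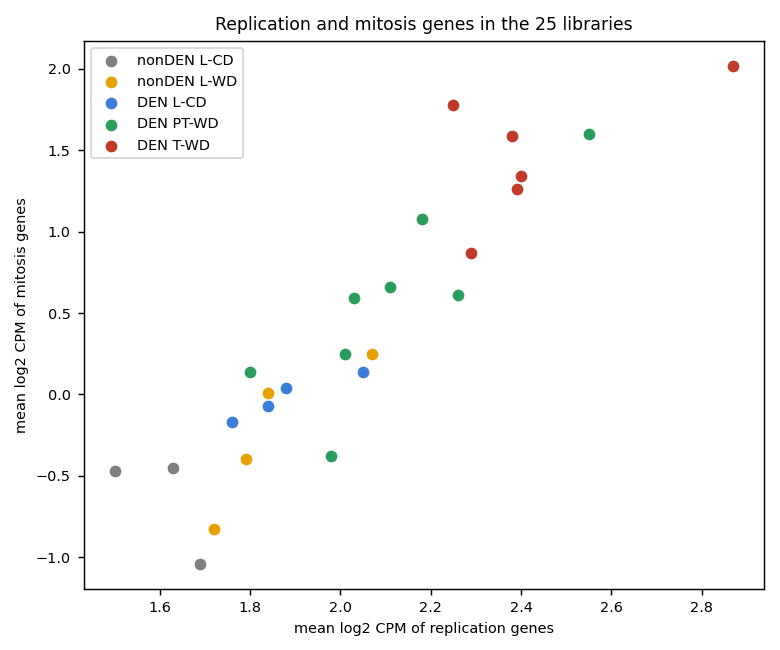
Mean log2 CPM of the 15 replication genes (horizontal axis) against that of the 18 mitosis genes (vertical axis), 1 point per library, coloured by group. The mitosis axis spans -1.04 to 2.02 and the replication axis 1.5 to 2.87; DEN PT-WD replicate 8 lies among the tumors.

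Tumors compared with nonDEN L-WD gave the widest change. Of the 40 genes, 26 were called higher, beside 10.4% of all genes tested, and none lower, beside 5.24%. In the same comparison 31 rose, beside 25.9%. The called genes were 17 of 18 mitosis genes, all 4 regulators, 2 of 3 cyclins and 3 of 15 replication genes. The median log2 fold change was 1.77 for mitosis genes and 0.48 for replication genes, beside 0.02 for all genes tested. In 30 of the 40 genes, every tumor lay above every nonDEN L-WD library, beside 15.8% of all genes tested. Without DEN T-WD replicate 5, 26 genes were called.

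Tumors compared with DEN PT-WD gave a smaller change in the same direction. Of the 40 genes, 10 were called higher, beside 4.81% of all genes, and 25 rose, beside 19.5%. The called genes were *Ccne1*, *Ccnd1*, *Ccna2* and 7 mitosis genes (*Ccnb1*, *Ccnb2*, *Plk1*, *Birc5*, *Prc1*, *Cdc20* and *Kif20a*). No replication gene was called by edgeR or by DESeq2's Wald test, although 6 of 15 rose and 9 had an unadjusted p under 0.05. Median log2 fold changes were 0.85 for mitosis genes and 0.22 for replication genes, beside 0.01 for all genes. The number called rested on single libraries: it was 16 without DEN PT-WD replicate 8, 5 without DEN PT-WD replicate 2, 4 without DEN PT-WD replicate 6 or 7, 5 without DEN T-WD replicate 4 and 4 without DEN T-WD replicate 5. The number that rose was 31 without DEN PT-WD replicate 8 and 18 without DEN T-WD replicate 5.

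**Figure D3:**
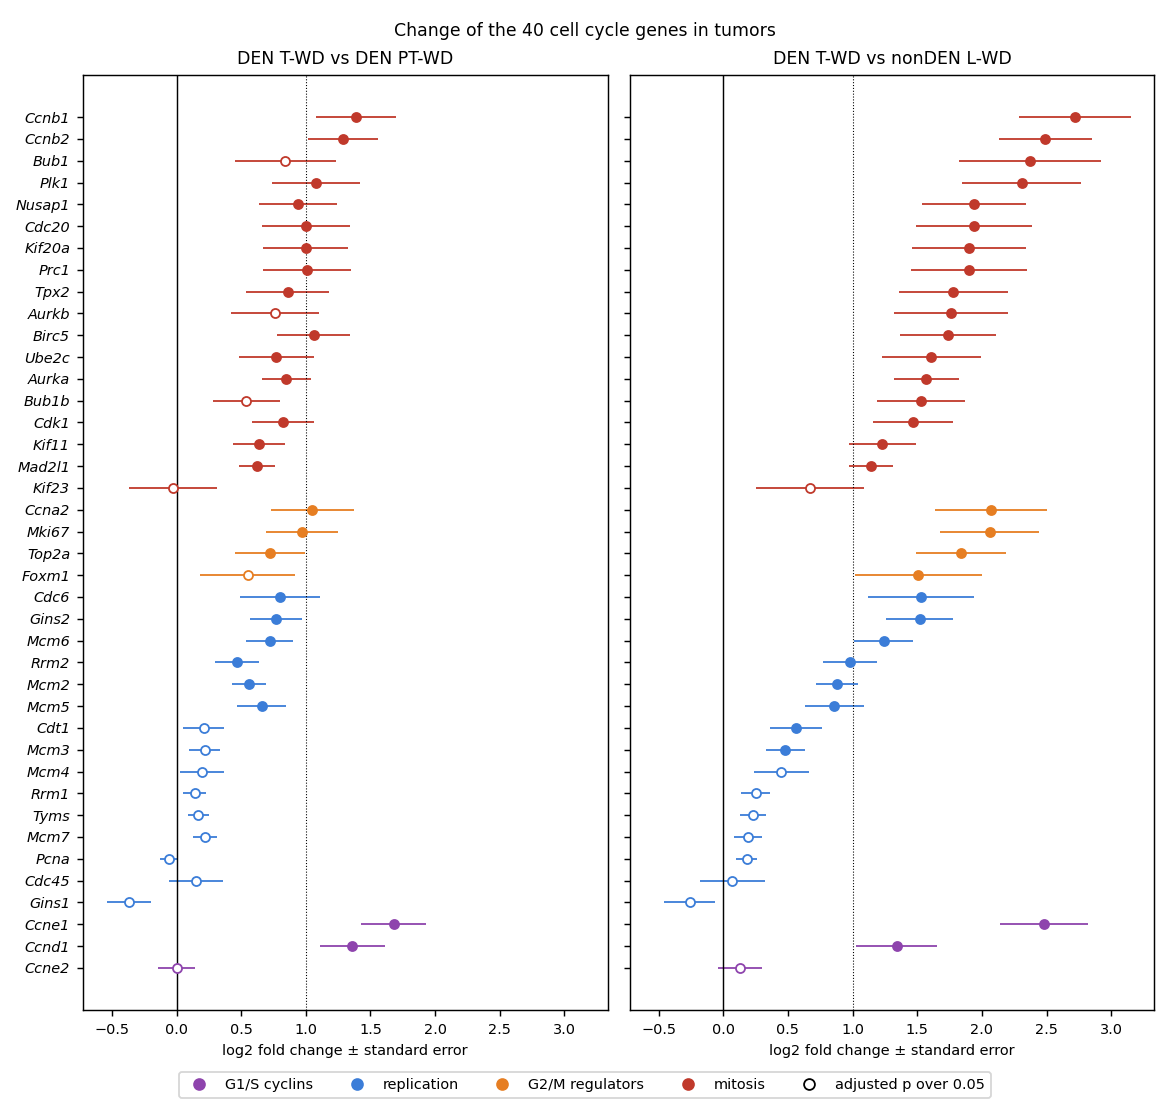
Log2 fold change (horizontal axis) with its standard error for each of the 40 genes (vertical axis), by class, for tumors against DEN PT-WD (left) and against nonDEN L-WD (right). Filled points have an adjusted p of at most 0.05 and the dotted line marks a log2 fold change of 1; against nonDEN L-WD, 17 of 18 mitosis genes lie beyond it and 3 of 15 replication genes.

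Peritumoral tissue compared with nonDEN L-WD gave 4 called genes, all higher, beside 2.36% of all genes, and 9 that rose, beside 7.5%. The called genes were *Ccnb1*, *Ccnb2*, *Top2a* and *Mki67*, and none was a replication gene, of which 4 had an unadjusted p under 0.05 and none was called by DESeq2's Wald test. The number called fell to 0 genes without nonDEN L-WD replicate 1, nonDEN L-WD replicate 4 or DEN PT-WD replicate 8, to 1 without DEN PT-WD replicate 3 and to 2 without nonDEN L-WD replicate 2 or DEN PT-WD replicate 4, and it reached 10 without DEN PT-WD replicate 6. It was 0 in a fit of only these groups and 7 with DESeq2's Wald test. Compared with DEN L-CD, which differs from DEN PT-WD in diet and in the tissue taken (whole liver, which may hold small tumors), edgeR called 0 genes, beside 1.52% of all genes, and DESeq2 called 0. Only *Mcm3* rose, beside 6.8% of all genes, and not without DEN L-CD replicate 1, 3 or 4 (adjusted p up to 0.063); 19 genes had an unadjusted p under 0.05, and 3 genes were called without DEN PT-WD replicate 6.

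With diet alone or DEN alone, the share of these genes that rose was near that of all genes. With diet alone (nonDEN L-WD relative to nonDEN L-CD), 2 genes (*Ccne2* and *Mcm5*) were called higher, beside 3.24% of all genes, 4 rose, beside 11.2%, and 1 (*Rrm2*) fell, beside 12.0%. Without nonDEN L-CD replicate 3, 1 gene was called. With DEN alone (DEN L-CD relative to nonDEN L-CD), the same genes, *Ccne2* and *Mcm5*, were called higher, beside 2.76%, and 3 rose, beside 9.12%. There 1 gene was called without nonDEN L-CD replicate 1 or 2 or DEN L-CD replicate 1 or 2, and 5 with DESeq2's Wald test. Most of the 40 genes lay above 0 in both: 33 with diet, with a median log2 fold change of 0.51 beside 0.01 for all genes and 11 at an unadjusted p under 0.05, and 35 with DEN, with a median of 0.65 beside 0.02 and 13 at an unadjusted p under 0.05. Both comparisons share the nonDEN L-CD libraries. edgeR called no mitosis gene in either. Of the 18 mitosis genes, 2 with diet and 4 with DEN had an unadjusted p under 0.05, and DESeq2 called 0 and 1. Of the 15 replication genes, 6 with diet and 6 with DEN had an unadjusted p under 0.05, in either direction. For the interaction of DEN with diet over nonDEN L-CD, nonDEN L-WD, DEN L-CD and DEN PT-WD, 1 gene (*Ccne2*) was called lower, beside 1.18%.

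Cyclins of the entry into S phase behaved unlike one another. *Ccnd1* encodes cyclin D1, the partner of CDK4 and CDK6. Normalized counts of *Ccnd1* were 752, 1552 and 1209.9 in the nonDEN L-CD libraries, 1491, 1102, 1356 and 1342 in those of nonDEN L-WD and 1351, 1274, 1763 and 1244 in those of DEN L-CD. For *Ccnd1*, the DEN PT-WD libraries ran from 583 to 2303 (median 1219) and the DEN T-WD libraries from 1628 to 5011 (median 3701). Only tumors stood apart, although replicates 5 and 6, at 1628 and 2266, lay inside the peritumoral range. *Ccnd1* rose in tumors against DEN PT-WD by 1.36 ± 0.25 (adjusted p = 0.000181) on the log2 scale, while DEN PT-WD against nonDEN L-WD gave -0.01 ± 0.28 (adjusted p = 0.984). *Ccne1* encodes cyclin E1, the partner of CDK2. Normalized counts of *Ccne1* were 23.4, 43.7 and 29.8 in the nonDEN L-CD libraries, 28.3, 39.7, 20.6 and 30.9 in those of nonDEN L-WD and 28.6, 21.7, 44.9 and 52.5 in those of DEN L-CD. For *Ccne1*, the DEN PT-WD libraries ran from 32.4 to 91.2 (median 43.8) and the DEN T-WD libraries from 107 to 231 (median 162). Every tumor lay above every peritumoral library, and *Ccne1* was the 1 gene of the 40 for which this held, beside 4.28% of all genes tested. Its log2 fold change was 1.68 ± 0.25 (adjusted p = 2.32e-05) against DEN PT-WD and 2.48 ± 0.34 (adjusted p = 3.34e-06) against nonDEN L-WD.

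*Ccne2*, which encodes cyclin E2, had another pattern. Normalized counts of *Ccne2* were 46.8, 41.4 and 28.6 in the nonDEN L-CD libraries, 84.8, 76.6, 87.6 and 102 in those of nonDEN L-WD and 96.5, 111, 87.4 and 97.7 in those of DEN L-CD. For *Ccne2*, the DEN PT-WD libraries ran from 64.1 to 123 (median 92.9) and the DEN T-WD libraries from 77.3 to 112 (median 96.6). The nonDEN L-CD libraries were lowest and the other groups overlapped. *Ccne2* rose with diet by 1.17 ± 0.22 (adjusted p = 0.000567) and with DEN by 1.33 ± 0.22 (adjusted p = 0.000191), and its change from DEN PT-WD to DEN T-WD was 0.00 ± 0.14 (adjusted p = 0.994). The diet effect differed with DEN by -1.20 ± 0.27 (adjusted p = 0.00784). The exons of *Ccne2* overlap the antisense gene *Ints8*, and those of *Ccnd1* overlap *LTO1*; whether counting used strand is not given in the sources used here.

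**Figure D4:**
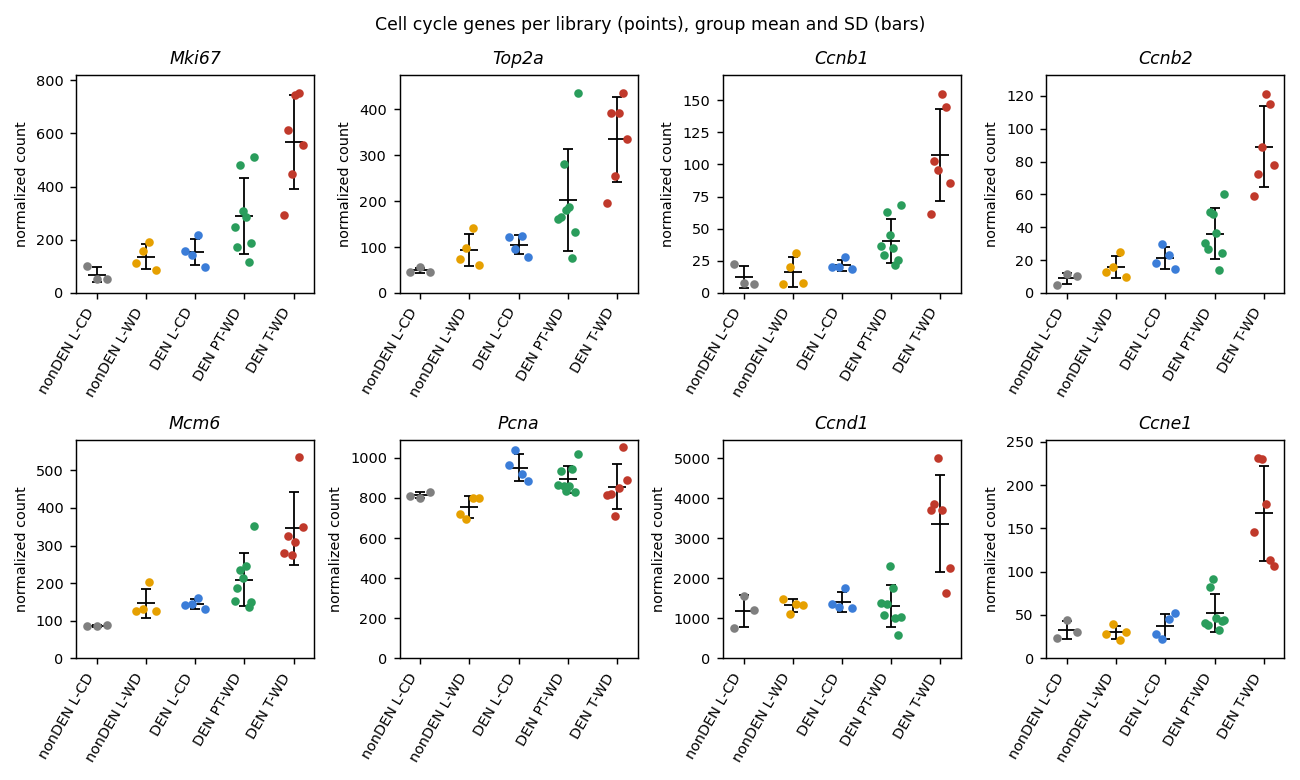
Normalized counts (vertical axes, from 0) of 8 genes in the 25 libraries, by group; points are libraries and bars the mean and SD. *Ccne1* separates all tumors from all peritumoral libraries, the mitosis genes *Ccnb1* and *Ccnb2* overlap slightly, and *Pcna* overlaps across the groups with DEN.

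Licensing factors load the helicase onto replication origins. *Cdc6*, which encodes a loader, was low throughout. Normalized counts of *Cdc6* were 9.4, 4.6 and 6.9 in the nonDEN L-CD libraries, 10.7, 14.2, 6.2 and 9.6 in those of nonDEN L-WD and 7.4, 13.3, 18.2 and 4.9 in those of DEN L-CD. For *Cdc6*, the DEN PT-WD libraries ran from 8.4 to 31.1 (median 16.1) and the DEN T-WD libraries from 17.7 to 53.1 (median 25.0). *Cdc6* rose in tumors by 0.80 ± 0.31 (adjusted p = 0.047) against DEN PT-WD and 1.53 ± 0.41 (adjusted p = 0.00334) against nonDEN L-WD, where the groups did not overlap. The rise against DEN PT-WD was not significant without DEN PT-WD replicate 1, 2, 4, 5, 6 or 7 or DEN T-WD replicate 2, 5 or 6 (adjusted p up to 0.167). *Cdt1* encodes its partner. Normalized counts of *Cdt1* were 49.1, 52.9 and 60.7 in the nonDEN L-CD libraries, 54.6, 44.5, 46.4 and 41.6 in those of nonDEN L-WD and 45.6, 24.1, 57.1 and 44.0 in those of DEN L-CD. For *Cdt1*, the DEN PT-WD libraries ran from 48.4 to 71.7 (median 60.3) and the DEN T-WD libraries from 55.4 to 105 (median 63.3). Tumor replicate 5 held the highest *Cdt1* value, and the other 5 tumors lay inside the peritumoral range. *Cdt1* rose against nonDEN L-WD by 0.56 ± 0.20 (adjusted p = 0.0208), but not without nonDEN L-WD replicate 2 or 4 or DEN T-WD replicate 5 (adjusted p up to 0.0616), and its log2 fold change against DEN PT-WD was 0.21 ± 0.16 (adjusted p = 0.332).

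The MCM genes encode the 6 subunits of the replicative helicase. *Mcm2* rose in tumors and passed no test with diet alone. Normalized counts of *Mcm2* were 88.9, 112 and 115 in the nonDEN L-CD libraries, 124, 129.6, 159.8 and 109.7 in those of nonDEN L-WD and 121, 114, 139.6 and 116 in those of DEN L-CD. For *Mcm2*, the DEN PT-WD libraries ran from 99.6 to 229 (median 160.3) and the DEN T-WD libraries from 209 to 268 (median 245). The tumors lay above all nonDEN L-WD libraries and in the upper part of the peritumoral range or beyond it. *Mcm2* rose by 0.56 ± 0.13 (adjusted p = 0.00198) against DEN PT-WD and by 0.88 ± 0.16 (adjusted p = 0.000142) against nonDEN L-WD. *Mcm5* was lowest in nonDEN L-CD. Normalized counts of *Mcm5* were 32.8, 38.0 and 37.8 in the nonDEN L-CD libraries, 76.0, 76.6, 118 and 63.9 in those of nonDEN L-WD and 84.9, 77.1, 65.6 and 64.7 in those of DEN L-CD. For *Mcm5*, the DEN PT-WD libraries ran from 64.1 to 173 (median 86.5) and the DEN T-WD libraries from 123 to 198 (median 152). *Mcm5* rose with diet alone by 1.21 ± 0.29 (adjusted p = 0.00524), with DEN alone by 1.01 ± 0.30 (adjusted p = 0.0174), and in tumors against DEN PT-WD by 0.66 ± 0.19 (adjusted p = 0.0083). Its call with diet was lost without nonDEN L-WD replicate 3, and its rise with DEN without nonDEN L-CD replicate 1 or 2 (adjusted p up to 0.0587).

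*Mcm6* had the largest tumor change of the helicase subunits. Normalized counts of *Mcm6* were 85.4, 85.1 and 89.4 in the nonDEN L-CD libraries, 127, 131, 203 and 125 in those of nonDEN L-WD and 142, 143, 162 and 132 in those of DEN L-CD. For *Mcm6*, the DEN PT-WD libraries ran from 137 to 352 (median 201) and the DEN T-WD libraries from 275 to 536 (median 317). All tumors lay above all nonDEN L-WD libraries, tumor replicate 5 far above the rest, and DEN PT-WD replicate 8 among the tumors. *Mcm6* rose by 0.72 ± 0.18 (adjusted p = 0.00341) against DEN PT-WD and 1.24 ± 0.23 (adjusted p = 0.000131) against nonDEN L-WD. *Mcm3* rose with diet alone by 0.80 ± 0.19 (adjusted p = 0.00369) and in tumors against nonDEN L-WD by 0.48 ± 0.15 (adjusted p = 0.0108), the latter not without nonDEN L-WD replicate 4 (adjusted p = 0.0536). *Mcm4* and *Mcm7* passed no test, with log2 fold changes in tumors against nonDEN L-WD of 0.45 ± 0.21 (adjusted p = 0.078) and 0.19 ± 0.11 (adjusted p = 0.153). *Mcm7* shares 18.1% of its 50-base words with other genes, first *Gm5487*, and overlaps *Ap4m1* and *Cops6* on the other strand.

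GINS and CDC45 complete the helicase at the fork. *Gins2* rose in DEN PT-WD against nonDEN L-WD by 0.75 ± 0.25 (adjusted p = 0.0491) and in tumors against DEN PT-WD by 0.77 ± 0.20 (adjusted p = 0.00386); the former was not significant without nonDEN L-WD replicate 1, 3 or 4 or DEN PT-WD replicate 1, 3, 4, 5 or 8 (adjusted p up to 0.173). *Gins1*, another subunit of that complex, did not follow. Normalized counts of *Gins1* were 30.4, 56.4 and 74.5 in the nonDEN L-CD libraries, 64.3, 49.2, 74.2 and 69.3 in those of nonDEN L-WD and 87.0, 69.9, 58.3 and 59.8 in those of DEN L-CD. For *Gins1*, the DEN PT-WD libraries ran from 53.3 to 93.3 (median 68.2) and the DEN T-WD libraries from 43.9 to 67.6 (median 51.8). All tumors lay within the wide range of nonDEN L-CD, but their median lay below every DEN PT-WD and every DEN L-CD library. *Gins1* passed no test, with a log2 fold change of -0.37 ± 0.17 (adjusted p = 0.0844) against DEN PT-WD and -0.26 ± 0.20 (adjusted p = 0.284) against nonDEN L-WD. *Cdc45* gave 0.07 ± 0.25 (adjusted p = 0.848) against nonDEN L-WD. *Pcna* encodes the sliding clamp of DNA polymerase and also serves repair. Per length it was the highest replication gene, at 25.4 TPM in nonDEN L-CD and 37.5 TPM in DEN T-WD. Its normalized counts, given next, overlapped between these groups.

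Normalized counts of *Pcna* were 809.6, 802 and 832 in the nonDEN L-CD libraries, 720.0, 695, 799 and 800.2 in those of nonDEN L-WD and 962, 1041, 918 and 886 in those of DEN L-CD. For *Pcna*, the DEN PT-WD libraries ran from 830.4 to 1020.5 (median 862) and the DEN T-WD libraries from 712 to 1054 (median 834). Each nonDEN L-WD library lay below all DEN L-CD and all DEN PT-WD libraries, and tumors overlapped all of these groups. *Pcna* rose in DEN PT-WD against nonDEN L-WD by 0.25 ± 0.08 (adjusted p = 0.0415), and tumors against DEN PT-WD gave -0.06 ± 0.07 (adjusted p = 0.52). The rise was not significant without nonDEN L-WD replicate 1, 2, 3 or 4 or DEN PT-WD replicate 2, 3 or 8 (adjusted p up to 0.116). It shares 19.1% of its 50-base words with other genes, first *Pcna-ps2*, so part of its count may belong to them.

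Nucleotide synthesis was represented by ribonucleotide reductase and thymidylate synthase. *Rrm2* encodes the small subunit of the reductase, whose level normally follows S phase. Normalized counts of *Rrm2* were 192, 231 and 197 in the nonDEN L-CD libraries, 92.6, 121, 125 and 86.3 in those of nonDEN L-WD and 109, 160.3, 225 and 173 in those of DEN L-CD. For *Rrm2*, the DEN PT-WD libraries ran from 138 to 176 (median 144) and the DEN T-WD libraries from 156 to 374 (median 178). The nonDEN L-WD libraries lay below all nonDEN L-CD and all DEN PT-WD libraries, and tumor replicate 5 stood alone at the top. *Rrm2* fell with diet alone by 0.96 ± 0.25 on the log2 scale (adjusted p = 0.00731), which no other of the 40 genes did, and rose in tumors by 0.47 ± 0.17 (adjusted p = 0.0336) against DEN PT-WD. That rise was not significant without DEN PT-WD replicate 1, 3, 4 or 7 or DEN T-WD replicate 1 or 5 (adjusted p up to 0.187). *Rrm1*, the large subunit, gave 0.14 ± 0.09 (adjusted p = 0.224). *Tyms* encodes thymidylate synthase. Normalized counts of *Tyms* were 134, 138 and 182 in the nonDEN L-CD libraries, 145, 153, 163 and 158 in those of nonDEN L-WD and 168, 162, 170.0 and 158 in those of DEN L-CD. For *Tyms*, the DEN PT-WD libraries ran from 131 to 184 (median 164) and the DEN T-WD libraries from 161 to 205 (median 176). All groups overlapped, and tumors against nonDEN L-WD gave 0.23 ± 0.10 (adjusted p = 0.0593).

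Regulators of G2 and proliferation rose in tumors against nonDEN L-WD. *Mki67* encodes the proliferation marker Ki-67. Normalized counts of *Mki67* were 102, 51.8 and 53.8 in the nonDEN L-CD libraries, 112, 157, 189.7 and 85.2 in those of nonDEN L-WD and 156, 142, 216 and 97.7 in those of DEN L-CD. For *Mki67*, the DEN PT-WD libraries ran from 117 to 511 (median 268) and the DEN T-WD libraries from 293 to 749.7 (median 585). All tumors lay above all nonDEN L-WD libraries, and the peritumoral range reached into both. *Mki67* rose by 0.97 ± 0.28 (adjusted p = 0.00959) against DEN PT-WD and 2.06 ± 0.38 (adjusted p = 0.000103) against nonDEN L-WD, and by 1.09 ± 0.35 (adjusted p = 0.0444) in DEN PT-WD against nonDEN L-WD. The last was not significant without nonDEN L-WD replicate 1, 2 or 4 or DEN PT-WD replicate 3, 4, 5 or 8 (adjusted p up to 0.157). Diet alone gave 0.98 ± 0.46 (adjusted p = 0.127) and DEN alone 1.15 ± 0.46 (adjusted p = 0.0781), with overlapping groups.

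*Top2a* encodes topoisomerase II alpha, which untangles chromosomes. Normalized counts of *Top2a* were 46.8, 56.4 and 44.7 in the nonDEN L-CD libraries, 74.0, 98.4, 141 and 60.7 in those of nonDEN L-WD and 122, 96.4, 124 and 79.4 in those of DEN L-CD. For *Top2a*, the DEN PT-WD libraries ran from 76.4 to 437 (median 173) and the DEN T-WD libraries from 196 to 436 (median 364). DEN PT-WD replicate 8, at 437, was the highest of all libraries. *Top2a* rose in DEN PT-WD against nonDEN L-WD by 1.12 ± 0.33 (adjusted p = 0.032) and in tumors against DEN PT-WD by 0.72 ± 0.27 (adjusted p = 0.0388). The first was not significant without nonDEN L-WD replicate 1, 2 or 4 or DEN PT-WD replicate 3 or 8 (adjusted p up to 0.124), and the second without DEN PT-WD replicate 1, 2, 4, 5, 6 or 7 or DEN T-WD replicate 2, 4, 5 or 6 (adjusted p up to 0.0801). *Foxm1* encodes the transcription factor named above. Normalized counts of *Foxm1* were 5.8, 6.9 and 9.2 in the nonDEN L-CD libraries, 20.5, 19.9, 13.4 and 4.3 in those of nonDEN L-WD and 17.0, 12.1, 15.8 and 6.1 in those of DEN L-CD. For *Foxm1*, the DEN PT-WD libraries ran from 10.3 to 77.7 (median 24.9) and the DEN T-WD libraries from 24.2 to 65.3 (median 38.7). Its highest value, 77.7, was again DEN PT-WD replicate 8. *Foxm1* gave 0.55 ± 0.37 (adjusted p = 0.269) against DEN PT-WD and rose by 1.51 ± 0.49 (adjusted p = 0.0132) against nonDEN L-WD, a call lost without nonDEN L-WD replicate 4. Without DEN PT-WD replicate 8, it rose against DEN PT-WD by 0.97 (adjusted p = 0.0202). *Ccna2*, cyclin A2, rose by 1.05 ± 0.32 (adjusted p = 0.0129) against DEN PT-WD.

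The B-type cyclins of the mitotic kinase had the largest changes of the 40 genes from nonDEN L-WD to tumor. *Cdk1* encodes the kinase that starts mitosis. Normalized counts of *Cdk1* were 36.3, 35.7 and 22.9 in the nonDEN L-CD libraries, 32.2, 52.0, 64.9 and 28.8 in those of nonDEN L-WD and 50.9, 38.6, 69.2 and 39.1 in those of DEN L-CD. For *Cdk1*, the DEN PT-WD libraries ran from 37.1 to 124 (median 69.5) and the DEN T-WD libraries from 90.7 to 174 (median 111). *Cdk1* rose in tumors by 0.82 ± 0.24 (adjusted p = 0.00966) against DEN PT-WD and 1.47 ± 0.31 (adjusted p = 0.000427) against nonDEN L-WD, with all tumors above all nonDEN L-WD libraries. *Ccnb1* and *Ccnb2* encode its B-type cyclins. Normalized counts of *Ccnb1* were 22.2, 8.1 and 6.9 in the nonDEN L-CD libraries, 6.8, 19.9, 30.9 and 7.5 in those of nonDEN L-WD and 20.2, 20.5, 27.9 and 18.3 in those of DEN L-CD. For *Ccnb1*, the DEN PT-WD libraries ran from 22.0 to 68.5 (median 36.1) and the DEN T-WD libraries from 61.2 to 155 (median 99.2). *Ccnb1* had the largest log2 fold change of the 40 genes against nonDEN L-WD, 2.72 ± 0.43 (adjusted p = 1.96e-05). It rose by 1.39 ± 0.31 (adjusted p = 0.00116) from DEN PT-WD to tumor and by 1.32 ± 0.40 (adjusted p = 0.0344) from nonDEN L-WD to DEN PT-WD. It shares 23.4% of its 50-base words with other genes, first *Ccnb1-ps*.

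*Ccnb2*, whose promoter is shown above, has no such shared sequence. Normalized counts of *Ccnb2* were 4.7, 11.5 and 10.3 in the nonDEN L-CD libraries, 12.7, 16.1, 24.7 and 9.6 in those of nonDEN L-WD and 18, 30.1, 23.1 and 14.7 in those of DEN L-CD. For *Ccnb2*, the DEN PT-WD libraries ran from 13.9 to 60.1 (median 33.5) and the DEN T-WD libraries from 58.9 to 121 (median 83.4). The lowest tumor, at 58.9, lay below the highest peritumoral library, at 60.1, and no others crossed. *Ccnb2* rose by 1.29 ± 0.27 (adjusted p = 0.000593) against DEN PT-WD, 2.49 ± 0.36 (adjusted p = 8.15e-06) against nonDEN L-WD and 1.20 ± 0.34 (adjusted p = 0.0265) from nonDEN L-WD to DEN PT-WD. From nonDEN L-CD to DEN L-CD the libraries did not overlap, and the log2 fold change was 1.27 ± 0.46 (adjusted p = 0.0539). The rise from nonDEN L-WD to DEN PT-WD was not significant for *Ccnb1* without nonDEN L-WD replicate 1 or 4 or DEN PT-WD replicate 3, 4 or 8 (adjusted p up to 0.133), nor for *Ccnb2* without nonDEN L-WD replicate 1, 2 or 4 or DEN PT-WD replicate 8 (adjusted p up to 0.111).

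Other mitotic kinases and the chromosomal passenger complex rose in tumors against nonDEN L-WD. *Plk1* rose by 2.31 ± 0.46 (adjusted p = 0.000258) and *Aurka*, a kinase of the spindle poles, by 1.57 ± 0.25 (adjusted p = 1.81e-05). *Aurkb* encodes the kinase of the passenger complex. Normalized counts of *Aurkb* were 5.8, 2.3 and 2.3 in the nonDEN L-CD libraries, 10.7, 11.4, 8.2 and 4.3 in those of nonDEN L-WD and 6.4, 4.8, 9.7 and 11.0 in those of DEN L-CD. For *Aurkb*, the DEN PT-WD libraries ran from 6.9 to 36 (median 12.5) and the DEN T-WD libraries from 12.7 to 35.3 (median 32.7). Tumor replicate 1, at 12.7, stood well below the other 5. *Aurkb* rose by 1.76 ± 0.44 (adjusted p = 0.00231) against nonDEN L-WD, and against DEN PT-WD it gave 0.76 ± 0.34 (adjusted p = 0.0777), a rise without DEN PT-WD replicate 3 or 8 or DEN T-WD replicate 1 (adjusted p up to 0.0363). *Birc5* encodes survivin, a partner of this kinase. Normalized counts of *Birc5* were 28.1, 13.8 and 16.0 in the nonDEN L-CD libraries, 14.6, 18.9, 34.0 and 10.7 in those of nonDEN L-WD and 19.1, 22.9, 12.1 and 20.8 in those of DEN L-CD. For *Birc5*, the DEN PT-WD libraries ran from 15.4 to 53.0 (median 32.2) and the DEN T-WD libraries from 35.8 to 83.3 (median 65.6). Tumor replicate 1 was again lowest, at 35.8. *Birc5* rose by 1.06 ± 0.28 (adjusted p = 0.00497) against DEN PT-WD and 1.74 ± 0.37 (adjusted p = 0.000472) against nonDEN L-WD.

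The spindle checkpoint delays chromosome separation until all chromosomes are attached. *Mad2l1*, per length the highest mitosis gene at 8.61 TPM in tumors, was the only mitosis gene that rose both with diet alone and with DEN alone, by 0.58 ± 0.21 (adjusted p = 0.0499) with diet and 0.66 ± 0.21 (adjusted p = 0.0284) with DEN. The rise with diet was not significant without nonDEN L-CD replicate 1, 2 or 3 or nonDEN L-WD replicate 1, 2 or 3 (adjusted p up to 0.19), nor that with DEN without nonDEN L-CD replicate 1 or 3 or DEN L-CD replicate 2 or 3 (adjusted p up to 0.126). It rose further by 0.62 ± 0.14 (adjusted p = 0.00124) from DEN PT-WD to tumor. *Bub1* and *Bub1b* rose against nonDEN L-WD by 2.37 ± 0.55 (adjusted p = 0.00107) and 1.53 ± 0.34 (adjusted p = 0.000821), and gave 0.84 ± 0.39 (adjusted p = 0.0986) and 0.54 ± 0.26 (adjusted p = 0.116) against DEN PT-WD, where without DEN PT-WD replicate 8 both rose (adjusted p = 0.00917 and 0.0123). *Cdc20* and *Ube2c* drive the anaphase-promoting complex that the checkpoint restrains. Normalized counts of *Ube2c* were 12.9, 23.0 and 4.6 in the nonDEN L-CD libraries, 16.6, 27.4, 18.6 and 10.7 in those of nonDEN L-WD and 20.2, 16.9, 14.6 and 18.3 in those of DEN L-CD. For *Ube2c*, the DEN PT-WD libraries ran from 14.4 to 69.3 (median 32.4) and the DEN T-WD libraries from 41.6 to 66.8 (median 54.6). *Ube2c* rose by 0.77 ± 0.29 (adjusted p = 0.0394) against DEN PT-WD and 1.61 ± 0.38 (adjusted p = 0.00119) against nonDEN L-WD, and *Cdc20* by 1.00 ± 0.34 (adjusted p = 0.0234) and 1.94 ± 0.45 (adjusted p = 0.00111). Against DEN PT-WD, the rise of *Cdc20* was not significant without DEN T-WD replicate 5 (adjusted p = 0.0708), nor that of *Ube2c* without DEN PT-WD replicate 1, 2, 4, 5, 6 or 7 or DEN T-WD replicate 2, 3, 4 or 6 (adjusted p up to 0.0793).

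Spindle motors and microtubule bundlers rose as well, with 1 exception. *Prc1*, *Nusap1*, *Tpx2*, *Kif20a* and *Kif11* rose against nonDEN L-WD by log2 fold changes of 1.90, 1.94, 1.78, 1.90 and 1.23, with adjusted p-values from 0.000368 to 0.00133. *Kif23* encodes a motor of the central spindle needed to complete cell division. Normalized counts of *Kif23* were 23.4, 28.8 and 12.6 in the nonDEN L-CD libraries, 27.3, 51.1, 27.8 and 21.3 in those of nonDEN L-WD and 29.7, 39.8, 29.1 and 22.0 in those of DEN L-CD. For *Kif23*, the DEN PT-WD libraries ran from 15.1 to 138 (median 45.0) and the DEN T-WD libraries from 32.3 to 67.8 (median 52.5). DEN PT-WD replicate 8, at 138, held more than any tumor. *Kif23* passed no test, with 0.67 ± 0.42 (adjusted p = 0.192) against nonDEN L-WD and -0.03 ± 0.34 (adjusted p = 0.949) against DEN PT-WD, and without DEN PT-WD replicate 8 the latter was 0.37 (adjusted p = 0.291).

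Other genes of the same processes, listed by role, gave the same order of the classes in tumors. With diet alone, 11 of 38 tested other replication genes rose and 4 of 49 tested other mitosis genes, beside 11.2% of all genes. With DEN alone these numbers were 13 and 5, beside 9.12%. Median log2 fold changes of the replication and mitosis genes were 0.31 and 0.46 with diet, and 0.30 and 0.67 with DEN. Of 49 tested of 50 other mitosis genes, 15 were called higher in tumors against DEN PT-WD, beside 4.81% of all genes, and 40 against nonDEN L-WD, beside 10.4%. Their median log2 fold changes were 0.79 and 1.70, beside 0.01 and 0.02 for all genes. In DEN PT-WD against nonDEN L-WD, 7 were called higher, beside 2.36%. This count was 0 without nonDEN L-WD replicate 4, 1 without nonDEN L-WD replicate 1, 3 without DEN PT-WD replicate 8, 4 without DEN PT-WD replicate 3, 11 without nonDEN L-WD replicate 3 and 17 without DEN PT-WD replicate 6. None was called lower in tumors against DEN PT-WD, beside 3.09% of all genes, and 2 were against nonDEN L-WD, beside 5.24%. Of 38 tested of 40 other replication genes, edgeR called 0 higher in tumors against DEN PT-WD, beside 4.81% of all genes, and 1 lower, beside 3.09%. There 5 rose, beside 19.5%, and 5 fell, beside 18.1%, while 14 had an unadjusted p under 0.05 in either direction and the median log2 fold change was 0.09. Against nonDEN L-WD, 5 were called higher, beside 10.4%, and 1 lower, beside 5.24%. Without DEN PT-WD replicate 8, 4 were called in all against DEN PT-WD, and against nonDEN L-WD 4 without nonDEN L-WD replicate 4 and 9 without DEN T-WD replicate 1. Of the other mitosis genes, 7 were called against DEN PT-WD without DEN T-WD replicate 5, 9 without DEN PT-WD replicate 6 and 25 without DEN PT-WD replicate 8. *Cdkn3*, a phosphatase of cell cycle kinases, rose by 1.68 ± 0.36 (adjusted p = 0.000805) against DEN PT-WD, *Ckap2* by 1.40 ± 0.30 (adjusted p = 0.000933) and *Depdc1a* by 1.40 ± 0.42 (adjusted p = 0.0118). In DEN PT-WD against nonDEN L-WD, *Sgo2a*, which protects cohesin at centromeres, rose by 1.68 ± 0.44 (adjusted p = 0.0161) and the motor *Kif15* by 1.67 ± 0.41 (adjusted p = 0.0124); neither rise was significant without nonDEN L-WD replicate 4, nor that of *Sgo2a* without nonDEN L-WD replicate 1. *Cdc25c*, the phosphatase that activates CDK1, had at most 1 count per library in nonDEN L-WD, and against a floor of 3 counts per library it was at least 1.74-fold higher in DEN PT-WD and at least 3.94-fold higher in tumors. In DEN PT-WD, replicate 8 held 13.4 normalized counts and the other 7 libraries 1.7 to 7.7, of which 3 lay under the floor. Its test against nonDEN L-WD there was not significant without nonDEN L-WD replicate 1, 2, 3 or 4 or DEN PT-WD replicate 8 (adjusted p up to 0.0759).

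Some listed genes went the other way; sequence shared with other genes was not examined for these. *Mcm10*, a replication initiation factor, was high in liver and fell in tumors. Normalized counts of *Mcm10* were 2343, 3038 and 1574 in the nonDEN L-CD libraries, 2011, 2479, 2102 and 3249.8 in those of nonDEN L-WD and 2112, 2743, 2923 and 2421 in those of DEN L-CD. For *Mcm10*, the DEN PT-WD libraries ran from 1125 to 2204 (median 1469) and the DEN T-WD libraries from 552 to 744 (median 597). Every tumor lay below every other library, and the log2 fold change was -1.36 ± 0.17 (adjusted p = 2.55e-06) against DEN PT-WD and -2.0 ± 0.19 (adjusted p = 3.88e-08) against nonDEN L-WD. *Ccnf*, cyclin F, fell as well, with -1.64 ± 0.14 (adjusted p = 8.24e-09) against nonDEN L-WD. *Spc24*, a kinetochore subunit, gave -1.20 ± 0.25 (adjusted p = 0.000437) against nonDEN L-WD and -0.88 ± 0.22 (adjusted p = 0.00274) against DEN PT-WD, but it had risen with diet alone by 1.5 ± 0.32 (adjusted p = 0.00198) and with DEN alone by 1.39 ± 0.32 (adjusted p = 0.0036), and tumors (71.6 to 132) overlapped nonDEN L-CD (65.3 to 117). *Uhrf1*, a reader of newly replicated DNA, did not go the other way. It rose by 1.79 ± 0.55 (adjusted p = 0.0218) with diet, 1.86 ± 0.55 (adjusted p = 0.0193) with DEN and 2.08 ± 0.40 (adjusted p = 0.000162) in tumors against nonDEN L-WD. The first was lost without nonDEN L-CD replicate 2 or 3 or nonDEN L-WD replicate 3, and the second without nonDEN L-CD replicate 2.

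Among 14 kinases and E2F factors of G1, 0 were called by edgeR in tumors against DEN PT-WD, beside 4.81% of all genes, where 7 had an unadjusted p under 0.05, and 1 against nonDEN L-WD, beside 10.4% (*E2f7*, 1.05 ± 0.42 (adjusted p = 0.0419), lost without nonDEN L-WD replicate 1, 2 or 4 or DEN T-WD replicate 2, 4 or 6). Of the 14, 4 rose in tumors against DEN PT-WD, beside 19.5% of all genes, and 0 fell, beside 18.1%. Against nonDEN L-WD, 8 rose, beside 25.9%, and 1 fell, beside 23.1%. *Cdk4* rose slightly, by 0.31 ± 0.05 (adjusted p = 0.000101) against DEN PT-WD. *E2f1* ran from 27.8 to 96.8 (median 78.8) in DEN PT-WD and from 59.2 to 196 (median 71.8) in tumors, where replicate 5 was highest, and gave 0.30 ± 0.25 (adjusted p = 0.385). *Mybl2* gave 0.17 ± 0.37 (adjusted p = 0.754) and *Ccnd2* 0.13 ± 0.09 (adjusted p = 0.246). *E2f8*, a repressor of the family, fell with diet alone by 2.03 ± 0.56 (adjusted p = 0.0122), and without nonDEN L-CD replicate 2 that p was 0.0713.

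Some inhibitors of the cycle rose in tumors as well. Of 16 listed, 7 rose in tumors against DEN PT-WD, beside 19.5% of all genes, 1 fell, beside 18.1%, and 8 did not pass, with a median log2 fold change of 0.28 beside 0.01 for all genes; 4 were called higher, beside 4.81% of all genes. Against nonDEN L-WD, 9 rose, beside 25.9%, and 1 fell in tumors, beside 23.1%, with a median of 0.59 beside 0.02, and 7 were called higher, beside 10.4%. In DEN PT-WD against nonDEN L-WD, 3 rose, beside 7.5%, and all 3 were called, beside 2.36%, with a median of 0.43. *Cdkn1a* encodes p21, an inhibitor of cyclin-dependent kinases. Normalized counts of *Cdkn1a* were 91.3, 997 and 535 in the nonDEN L-CD libraries, 95.5, 103, 162 and 174 in those of nonDEN L-WD and 148, 111, 94.7 and 203 in those of DEN L-CD. For *Cdkn1a*, the DEN PT-WD libraries ran from 94.5 to 416 (median 282) and the DEN T-WD libraries from 472 to 967 (median 793). Every tumor lay above every peritumoral library, and the nonDEN L-CD libraries spread widely. *Cdkn1a* rose in tumors by 1.45 ± 0.34 (adjusted p = 0.00167) against DEN PT-WD. It fell with diet alone by 2.02 ± 0.49 (adjusted p = 0.00528), and without nonDEN L-CD replicate 2, at 997, that p was 0.108.

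*Cdkn2a* and *Cdkn2b* are neighbours on chromosome 4 and encode inhibitors of CDK4 and CDK6; *Cdkn2a* also encodes ARF. Normalized counts of *Cdkn2a* were 8.2, 1.2 and 4.6 in the nonDEN L-CD libraries, 4.9, 8.5, 3.1 and 2.1 in those of nonDEN L-WD and 6.4, 14.5, 12.1 and 18.3 in those of DEN L-CD. For *Cdkn2a*, the DEN PT-WD libraries ran from 8.1 to 65.3 (median 15.4) and the DEN T-WD libraries from 31.7 to 183 (median 83.8). *Cdkn2a* rose by 2.03 ± 0.43 (adjusted p = 0.00077) against DEN PT-WD and by 2.32 ± 0.64 (adjusted p = 0.0223) from nonDEN L-WD to DEN PT-WD. Normalized counts of *Cdkn2b* were 5.8, 0.0 and 4.6 in the nonDEN L-CD libraries, 1.0, 3.8, 4.1 and 3.2 in those of nonDEN L-WD and 5.3, 3.6, 12.1 and 76.9 in those of DEN L-CD. For *Cdkn2b*, the DEN PT-WD libraries ran from 10.1 to 129.6 (median 37.7) and the DEN T-WD libraries from 40.5 to 369 (median 305). *Cdkn2b* had the largest rise of the list, 2.39 ± 0.59 (adjusted p = 0.00257) against DEN PT-WD and 4.04 ± 1.03 (adjusted p = 0.0147) from nonDEN L-WD to DEN PT-WD. The rises from nonDEN L-WD to DEN PT-WD were lost without nonDEN L-WD replicate 1 or 4, and that of *Cdkn2a* also without nonDEN L-WD replicate 3. *Cdkn2c*, an inhibitor of the same family, rose there by 1.09 ± 0.17 (adjusted p = 0.000778). *Btg2*, an antiproliferative gene, rose by 1.46 ± 0.30 (adjusted p = 0.000568) against DEN PT-WD. Tumor replicate 5, which had the highest replication and mitosis means, had the lowest tumor values of *Cdkn1a* (472), *Cdkn2a* (31.7), *Cdkn2b* (40.5) and *Btg2* (823), and of *Ccnd1*.

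**Figure D5:**
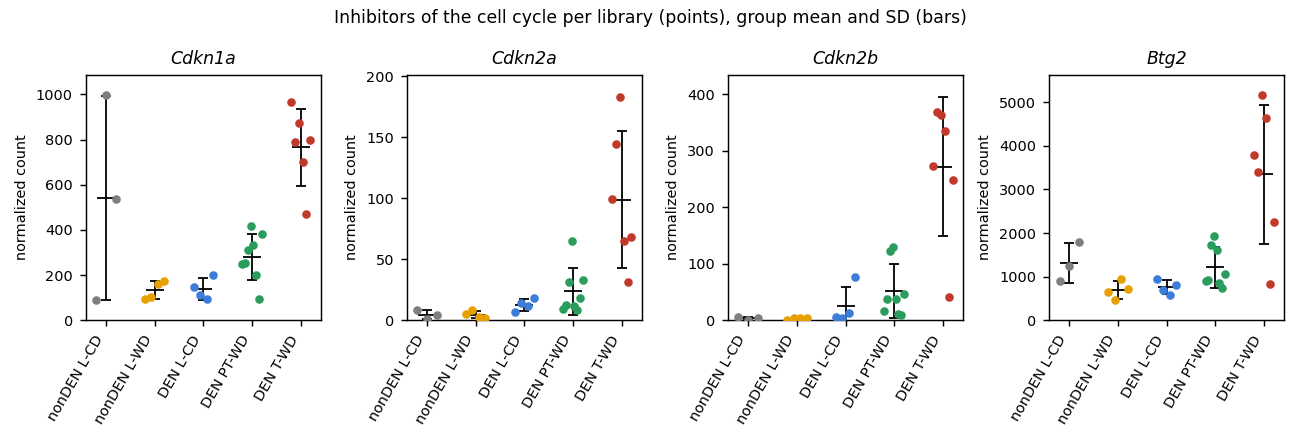
Normalized counts (vertical axes, from 0) of 4 inhibitors in the 25 libraries, by group; points are libraries and bars the mean and SD. Replicate 5 is the lowest tumor point in each panel, the other 5 tumors lie above all other points for *Cdkn2b* and *Btg2*, and nonDEN L-CD spreads from 91.3 to 997 for *Cdkn1a*.

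Markers of other cell types moved with some of these comparisons. Summed leukocyte markers (14 genes, none at 0 in any group) were 33.8 to 46.9 TPM in nonDEN L-CD, 38.4 to 72.6 in nonDEN L-WD, 42.0 to 77.0 in DEN L-CD, 58.2 to 118 in DEN PT-WD and 66.4 to 161 in DEN T-WD. The highest peritumoral value was replicate 8 and the lowest replicate 6, the libraries with the highest and lowest mitosis means of that group. Replicate 6 was also lowest there for summed bile duct, endothelial, stellate and erythroid markers. In tumors, replicate 5 was highest in both. Tumor replicate 1, with the lowest mitosis mean (0.87), had 100 TPM of leukocyte markers. Tumor replicate 4, with the second highest (1.78), had 71.8 TPM. From nonDEN L-WD to DEN PT-WD, 4 of the 14 rose, beside 7.5% of all genes, 2 were called, beside 2.36%, and their median log2 fold change was 0.61. From DEN PT-WD to tumor, edgeR called 0 of the 14, beside 4.81% of all genes called higher and 3.09% called lower, 3 had an unadjusted p under 0.05 and their median log2 fold change was 0.10. Summed bile duct markers (5 genes) were 72.7 to 324 TPM in DEN PT-WD and 385 to 833 TPM in DEN T-WD. *Spp1* rose by 1.97 ± 0.27 (adjusted p = 8.86e-06) and *Sox9* by 1.38 ± 0.22 (adjusted p = 4.55e-05), while *Krt19*, *Krt7* and *Epcam* gave -0.96 ± 0.46 (adjusted p = 0.109), -0.70 ± 0.38 (adjusted p = 0.161) and 0.26 ± 0.35 (adjusted p = 0.597), and the median of the 5 was 0.26. Endothelial markers (6 genes) summed to 45.4 to 72.9 TPM in nonDEN L-WD, 75.7 to 102 in DEN PT-WD and 92.0 to 110 in DEN T-WD, and 3 of the 6 rose from nonDEN L-WD to DEN PT-WD, beside 7.5% of all genes. Stellate cell and fibroblast markers (7 genes) summed to 156 to 253, 252 to 467 and 236 to 316 TPM in the same order, and 4 of the 7 rose from nonDEN L-WD to DEN PT-WD, beside the same 7.5%. Erythroid markers (5 genes) summed to 956 to 1110, 956 to 2240 and 1540 to 4580 TPM, and from nonDEN L-WD to tumor 3 of the 5 rose, beside 25.9%, and 2 fell, beside 23.1%. Pancreas markers (8 genes) varied within groups, from 0.6 to 4880 TPM in DEN PT-WD, where replicate 1 was highest, and from 0.88 to 1260 TPM in DEN T-WD. Of 8 hepatocyte markers, 2 rose from DEN PT-WD to tumor, beside 19.5% of all genes, and 3 fell, beside 18.1%; *Apoa1* rose by 1.04 ± 0.24 (adjusted p = 0.00169) and *Cyp2e1* fell by 1.67 ± 0.17 (adjusted p = 1.8e-07). These sums are in TPM, so their differences between groups can exceed those in normalized counts. The part of these cells in the cell cycle results was not tested.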

How the data were processed

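The authors aligned single-end reads of polyadenylated RNA to GRCm38 with STAR and RSEM, tools that the submitters' processing notes also name, with quality checks by FastQC. The deposited expected counts are RSEM's estimated reads per gene, not normalized and not always whole. The deposited TPM are RSEM's shares of transcripts, corrected for gene length. Use of strand in counting and the annotation release are not given in the sources used here.

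Rounded expected counts entered edgeR 4.0.16 (R 4.3.3), with TMM scaling, filterByExpr at a minimum count of 10 and the quasi-likelihood test, in 1 model of all 5 groups. P-values were adjusted by Benjamini-Hochberg for 15625 genes. A gene was called at an adjusted p up to 0.05 with a log2 fold change of 1 or more in size, the limits of the study's methods, which name DESeq2; DESeq2 1.42.0 was an alternative. Class means were taken over log2 CPM (prior count 2). The fit was tested on simulated data with known changes.

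The members and lists were chosen with earlier results of these data known. All 40 members could be named, with library values for a fixed subset and for the 2 largest called changes per comparison; from other lists, up to 3 of the largest called changes in tumors against peritumoral tissue and in peritumoral tissue against untreated liver, plus *Cdkn1a*, *Cdkn2a*, *E2f1*, *Mybl2*, *Cdk4* and *Ccnd2*. *Ccnf*, *Spc24*, *E2f7* and *E2f8* were chosen after their values were seen. Replicate pairs were checked for identical counts, and none was counted as 1 sample. Alternatives were DESeq2's test and size factors, no filter, no minimum fold, fits of only the groups compared, a replicate block, each replicate left out, other scores (TPM-based, a prior count of 0.5, medians), and a shorter promoter window of 150 bases before the start. Shared sequence is the percent of a gene's words of 50 bases held by other genes. Promoter windows came from RefSeq and figures from Matplotlib 3.10.9.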

Additional observations from a re-analysis of the deposited data

Results flagged for a closer look

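Of 92 groups of library values tested for a library far from the others, 7 had one, and chance flags about 1 in 20 groups. In tumors, replicate 1 was low for *Birc5* (35.8 normalized counts) and *Aurkb* (12.7), while replicate 5 was high for *Cdt1* (105.4), *Mcm6* (535.9) and *Rrm2* (374.5) and for the mean over replication genes (2.87 log2 CPM). In nonDEN L-WD, replicate 3 was high for *Mcm6* (203.1). *Ccne2* differed in its diet effect between mice with and without DEN by -1.20 on the log2 scale, by edgeR's interaction test.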

How the results depend on the processing

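Every setting below was listed beforehand except log2(TPM + 0.1), which was chosen after seeing the data. With 1 replicate left out, the number of the 40 genes called ran from 1 to 3 for diet alone, 1 to 3 for DEN alone, 0 to 10 for peritumoral tissue against nonDEN L-WD, 0 to 3 for peritumoral tissue against DEN L-CD, 4 to 16 for tumors against peritumoral tissue and 25 to 28 for tumors against nonDEN L-WD. With no minimum fold, 5, 3, 9, 1, 25 and 31 genes passed in the same order. For DEN alone, DESeq2's Wald test and a fit of only these groups each called 5 genes. For peritumoral tissue against nonDEN L-WD, 2 were called with no filter on low counts, 7 by DESeq2's Wald test and 0 in a fit of only these groups. The replicate block called 1 gene for DEN alone and for each of the 2 comparisons of peritumoral tissue with liver. Whether equal replicate numbers mark paired samples is not known. Pairs of equal number had correlations from -0.23 to 0.389, and in no comparison did every pair correlate above 0.1. Such correlations cannot exclude that some samples are paired.

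The difference between replication and mitosis means was 0.30 with the median over genes for diet alone and -0.62 for the interaction, and for DEN alone it was -0.02 with log2(TPM + 1) and turned to 0.02 with the median. With log2(TPM + 1) it was -0.07 for peritumoral tissue and -0.38 for tumors, both against nonDEN L-WD; with log2(TPM + 0.1) these were -0.37 and -0.92, and it was -0.14 for diet alone and -0.21 for DEN alone. The cause was not tested.

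Of 2863 values of single genes under an alternative, 2655 kept their direction and whether they were called, 144 lost a call, 44 gained one and 20 turned in sign. An uncalled gene whose rise was no longer significant counts among those kept, so these numbers do not measure how stable the rises were. Those that turned were all small and uncalled. For *Ccne2* from DEN PT-WD to DEN T-WD, the value was -0.02 with the replicate block and ran from -0.07 to 0.06 with a replicate left out; for *Kif23* it was 0.46 with the block and ran from -0.17 to 0.37; for *Cdc45* and *E2f1* it ran from 0.00 to 0.26 and from -0.07 to 0.40. From nonDEN L-WD to DEN T-WD, *Cdc45* gave -0.11 with the block and -0.08 to 0.17 with a replicate left out, and *E2f1* -0.34 and -0.33 to 0.14. The number of libraries and the low counts of mitosis genes limit precision: many had under 30 normalized counts in livers without DEN.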
